A study of Homo sapiens with 12 samples.

Results

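Kinesins are motor proteins that bind microtubules and turn the energy of ATP into movement or into the shortening of microtubule ends. One set of them builds and drives the mitotic spindle: it slides spindle microtubules apart, trims their ends, moves chromosomes and assembles the central spindle at which the cell is cut apart. Another set carries vesicles, mitochondria and ciliary cargo along the microtubules of interphase cells and of neurons. Mitotic kinesins are made and destroyed with the cell cycle in dividing cells, and nocodazole, the drug used here, depolymerizes the microtubules on which both sets run.

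The genes described are those whose symbol is KIF followed by a digit. The array annotation held 42 such genes on 86 probe sets, each annotated to a single gene, of 19775 genes with such a probe set. Of the 42, 38 encode motors and 4 are antisense genes (KIF1C-AS1, KIF9-AS1, KIF23-AS1 and KIF25-AS1). A gene was tested where a probe set reached a log2 signal of at least 5 on at least 2 arrays, and the probe set with the highest mean stood for the gene. This left 23 kinesin genes among the 9130 genes tested: 12 mitotic, 9 transport and 2 others. The classes follow the known roles of the proteins and were set with earlier results of these data known. KIF21A and KIF21B were put among the transport genes as neuronal kinesins, not for a cargo.

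HCT116 cells, a human colorectal carcinoma line, were arrested with a double thymidine block, which stops DNA synthesis, and then released. The 4 nocodazole arrays (0.1 mg/ml, as the design description of the series states the dose) were taken hourly from 7 to 10 h after release. The 8 DMSO (vehicle) arrays were taken every 2 h from 0 to 6 h and hourly from there to 10 h, and are grouped below into windows of 0 to 4 h (3 arrays), 6 to 8 h (3 arrays) and 9 to 10 h (2 arrays), with values in order of time. Each of the 12 conditions was a single Affymetrix array of 1 culture without a replicate, so no p measures the spread between cultures. In the tests of DMSO arrays the spread is that of neighbouring times, which may be technical or hold real change within a window. In the test of nocodazole with the hour as a block, the spread is that of the nocodazole minus DMSO difference between hours. It therefore also holds any change of the drug's effect with time. All cells passed the thymidine block, the DMSO cells included, and a culture at a given hour is a mixture of phases. A gene expressed in fewer cells and a gene with less RNA per cell therefore cannot be told apart.

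Some facts of the arrays touch the values below. With nocodazole, the last 2 arrays (9 and 10 h) differed from the rest: their medians over the tested genes were 8.88 and 8.76, against 9.12 to 9.56 on the other 10 arrays, and their gene-centred profiles had a Pearson's r across genes of 0.84 with each other and at most 0.0034 with any other array. The 49 kinesin probe sets below the filter, among them some of tested and of antisense genes, ran the other way. Their medians were 2.57 on both of these arrays and 2.39 to 2.47 on the other 10. The 18S rRNA probe sets averaged 8.32 on the DMSO array at 4 h and 3.55 to 4.05 on the rest. Epithelial markers were present (EPCAM 13.94 to 14.36, KRT18 14.51 to 14.83, CDH1 10.39 to 11.16, with KRT8 and KRT19 above 13), whereas the intestinal factor CDX1 lay at 2.28 to 2.41; of 4 markers of other cells PTPRC, PECAM1 and COL3A1 were below the filter and COL1A1 lay at 7.75 to 8.60.

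The promoters of the members are shown first, because genes that peak in G2 and mitosis are known to carry a cell cycle homology region (CHR) with nearby CCAAT boxes, and the 2 classes of members held these letters in different numbers. RefSeq windows (GRCh38.p14, 250 bases before to 50 after the start site) were found for all 23 tested genes. CHR letters were TTTGAA or TTCGAA on either strand and CCAAT was also searched on either strand. The motifs do not overlap in their letters. The stretches below run from 150 bases before to 30 bases after the start site, 5′ to 3′ on the strand of the gene, with the matched letters in capitals. They show KIF23, KIF11 and KIF18B, which hold both motifs, KIF20A, which holds CCAAT alone, KIF5B, the transport gene that holds both, and KIF1C, which holds neither.
KIF23 (chr15:69414199-69414378, plus strand): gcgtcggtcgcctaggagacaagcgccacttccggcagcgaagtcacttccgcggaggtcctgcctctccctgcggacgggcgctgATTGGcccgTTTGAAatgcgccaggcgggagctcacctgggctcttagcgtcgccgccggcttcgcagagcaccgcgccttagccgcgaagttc
KIF11 (chr10:92592980-92593159, plus strand): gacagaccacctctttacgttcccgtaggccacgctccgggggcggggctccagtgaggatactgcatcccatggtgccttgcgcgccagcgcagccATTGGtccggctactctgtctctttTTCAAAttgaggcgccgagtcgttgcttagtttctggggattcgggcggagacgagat
KIF18B (chr17:44947744-44947923, minus strand): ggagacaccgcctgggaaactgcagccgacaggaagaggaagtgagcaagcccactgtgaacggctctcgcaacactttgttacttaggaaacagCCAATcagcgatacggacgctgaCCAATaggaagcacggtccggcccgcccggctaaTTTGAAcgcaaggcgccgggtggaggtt
KIF20A (chr5:138178962-138179141, plus strand): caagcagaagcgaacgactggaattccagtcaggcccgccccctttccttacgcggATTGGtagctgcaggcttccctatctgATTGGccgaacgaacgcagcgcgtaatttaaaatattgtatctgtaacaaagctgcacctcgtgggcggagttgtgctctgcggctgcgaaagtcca
KIF5B (chr10:32056396-32056575, minus strand): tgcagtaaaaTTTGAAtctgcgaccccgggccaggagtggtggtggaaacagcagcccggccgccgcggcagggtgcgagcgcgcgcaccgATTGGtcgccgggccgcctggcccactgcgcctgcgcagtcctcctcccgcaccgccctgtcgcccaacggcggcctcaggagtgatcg
KIF1C (chr17:4997800-4997979, plus strand): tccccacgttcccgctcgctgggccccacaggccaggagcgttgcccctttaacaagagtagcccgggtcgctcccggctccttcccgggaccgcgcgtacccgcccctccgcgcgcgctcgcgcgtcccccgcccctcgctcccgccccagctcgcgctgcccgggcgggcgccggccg

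Of the 12 mitotic genes, 9 held CHR letters, 9 held CCAAT and 8 held both in 1 window (KIF4A, KIF11, KIF14, KIF18A, KIF18B, KIF20B, KIF22 and KIF23). KIF15 held CHR letters alone, KIF20A held 2 CCAAT boxes alone, and KIF2A and KIF2C held neither. Of the 9 transport genes, 1 held CHR letters (KIF5B, at -140 relative to the start site), 4 held CCAAT and 1 held both; KIF9 and KIF26A held none. Over all 35116 windows, 16.4% held CHR letters, 34.6% CCAAT and 6.38% both, and counted by gene over 27305 genes the shares were 19.5%, 39.7% and 7.85%. Counted in bases from the start site, CCAAT began at -64 and CHR letters at -55 in KIF23, CCAAT at -53 and CHR letters at -28 in KIF11, and CCAAT at -55 and -32 and CHR letters at 3 in KIF18B. The matches are letters in a window and were not measured as binding.

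**Figure D1:**
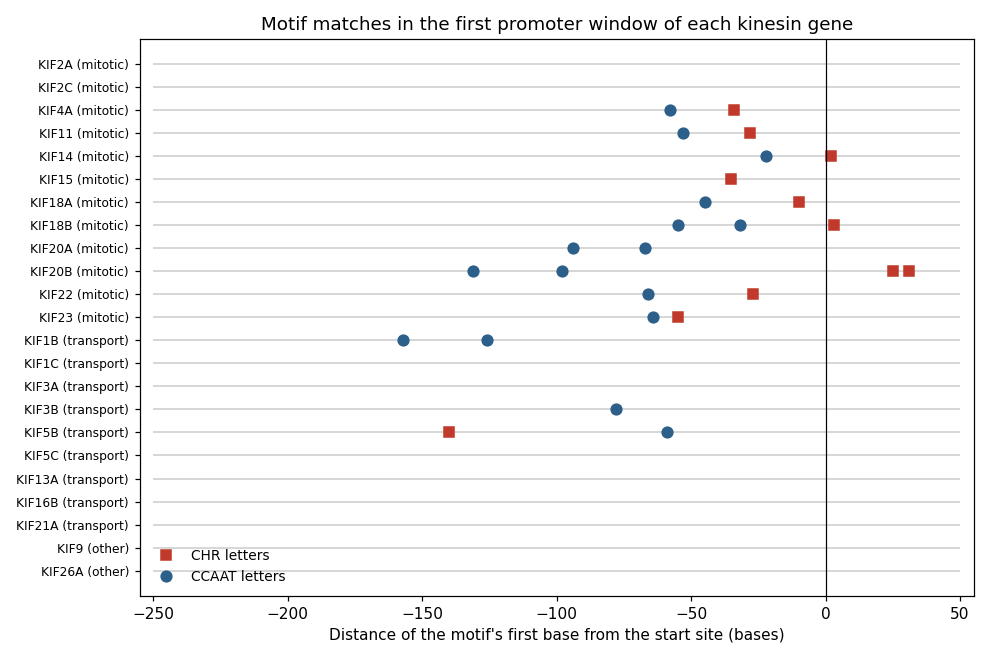
Position of CHR letters (squares) and CCAAT letters (circles) in the first RefSeq promoter window of each tested kinesin gene, as distance in bases from the start site (line at 0); grey lines span the window. The matches of mitotic genes cluster around and just before the start site, and 8 of the 12 mitotic genes and 1 of the 9 transport genes hold both kinds.

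With DMSO, most mitotic kinesins and 1 transport kinesin changed with time. Of the 12 mitotic genes, 11 changed over the 8 DMSO times by a moderated F test of a spline of time with 3 degrees of freedom (limma, Benjamini-Hochberg adjusted p under 0.05 over 9130 genes), KIF15 being the exception. Of the 9 transport genes 1 changed (KIF21A), and neither KIF9 nor KIF26A did. Over all genes 21.8% changed. The lowest DMSO value was at 0 h in 10 of the 12 mitotic genes and in 0 of the 9 transport genes, and the highest was at 6, 7 or 8 h in 10 mitotic and 3 transport genes. The distance from the lowest to the highest DMSO value was 0.67 to 2.78 among mitotic genes (median 1.27) and 0.51 to 1.73 among transport genes (median 0.82), on the log2 scale.

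**Figure D2:**
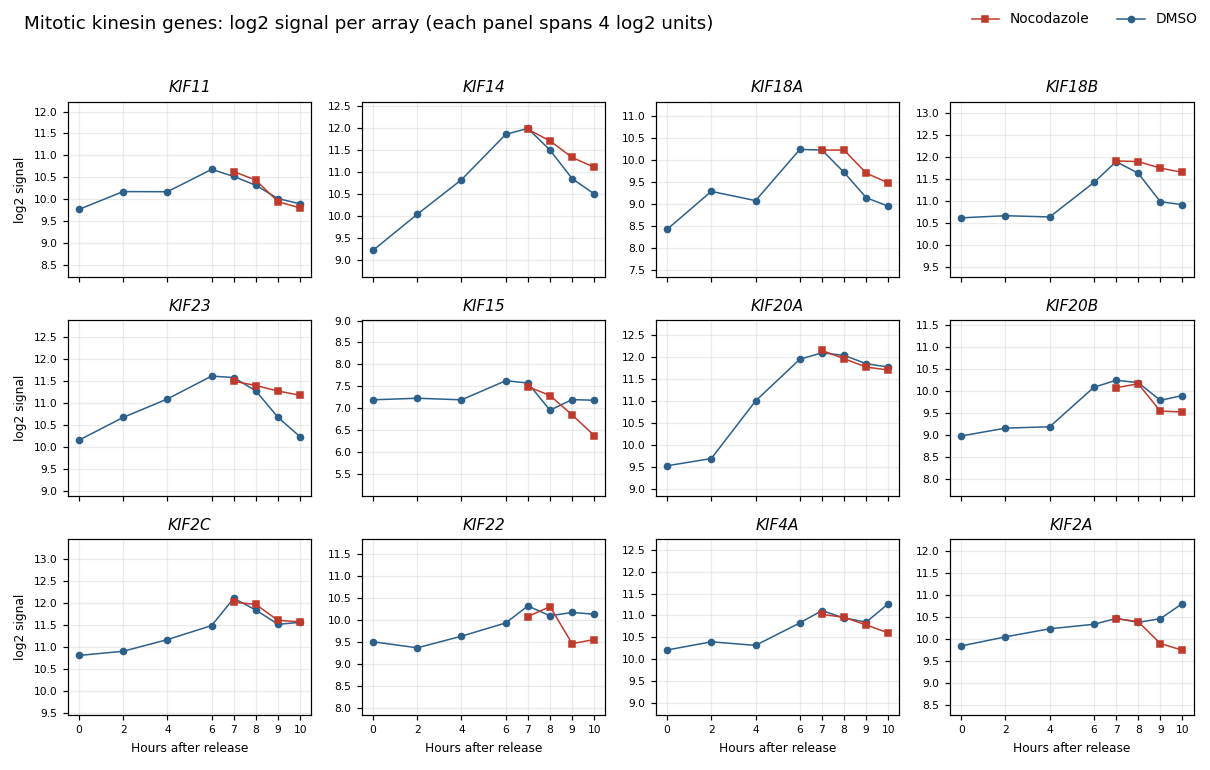
Log2 signal of the 12 mitotic kinesin genes against hours after release, 1 point per array, with nocodazole as squares and DMSO as circles; all panels span the same number of log2 units. KIF14, KIF18A, KIF18B and KIF23 lie higher with nocodazole than with DMSO at 9 and 10 h, and KIF2A, KIF15 and KIF22 lie lower.

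KIF20A, also called MKLP2, brings the chromosomal passenger complex to the central spindle. Its log2 signal with DMSO was 9.53, 9.70 and 11.01 over 0 to 4 h, then 11.96, 12.10 and 12.04 over 6 to 8 h, and 11.86 and 11.78 over 9 to 10 h. The step lay between 2 and 6 h, and the 10 h value was 2.25 above that at 0 h. The fitted course spanned 2.82 log2 units (adjusted p = 0.00145, rank 25 of 9130). KIF14 binds PRC1 and citron kinase and acts in the final cut between daughter cells. It had 9.22, 10.04 and 10.83 over 0 to 4 h, 11.86, 11.99 and 11.50 over 6 to 8 h, and 10.85 and 10.50 over 9 to 10 h. KIF14 thus climbed with each sample from 0 to 7 h and lay at -1.49 relative to its peak at 10 h (fitted span 2.66, adjusted p = 0.00135, rank 19).

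KIF23, or MKLP1, is the motor subunit of centralspindlin, the complex it forms with RACGAP1 to bundle the central spindle. With DMSO it had 10.15, 10.66 and 11.09 over 0 to 4 h, 11.61, 11.57 and 11.27 over 6 to 8 h, and 10.67 and 10.22 over 9 to 10 h, so that the last value was 0.08 above the first. The fitted span was 1.39 (adjusted p = 0.00210, rank 62). KIF11, or Eg5, slides antiparallel microtubules apart and keeps the spindle bipolar. It had 9.77, 10.18 and 10.17 over 0 to 4 h, 10.68, 10.52 and 10.32 over 6 to 8 h, and 10.02 and 9.90 over 9 to 10 h. KIF11 peaked at 6 h like KIF23, but its span of 0.72 was smaller and passed narrowly (adjusted p = 0.0462). KIF14, KIF20A and KIF23 were called under every alternative tried, those that left out 1 array included; KIF11 was lost without any 1 of the arrays at 0, 2, 6, 7, 8, 9 and 10 h.

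The other mitotic genes that changed over the course were KIF20B, KIF2C, KIF18B, KIF22, KIF18A, KIF2A and KIF4A, with adjusted p from 0.0110 to 0.0291 and fitted spans from 0.79 (KIF22) to 1.55 (KIF18A). Without the DMSO array at 0 h, or without that at 2 h, 3 of 12 mitotic genes were called, against 8 to 10 without any other array.

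Between windows of time, 8 of the 12 mitotic genes were higher at 6 to 8 h than at 0 to 4 h and 0 were lower; 0 of 9 transport genes and 0 of the 2 others passed in either direction. Over all genes, 5.41% were higher and 0.635% were lower, so that 494 of 552 calls were higher (464 of 884 after quantile normalization). The median difference was 0.85 over the mitotic genes and -0.03 over the transport genes, beside 0.06 over all genes (-0.10 after quantile normalization). All 12 mitotic differences were positive, and 11 of 12 after quantile normalization, KIF15 being the exception.

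The largest rise was that of KIF20A, with a mean of 12.04 at 6 to 8 h and 10.08 at 0 to 4 h, a difference of 1.96 (SE 0.33, adjusted p = 0.0239) or 3.88-fold. KIF14 averaged 11.78 at 6 to 8 h and 10.03 at 0 to 4 h, 3.38-fold higher (log2 difference 1.76, SE 0.35, adjusted p = 0.0314). The steadiest rise was that of KIF20B, another cytokinesis motor, with rank 4 of all genes by p. It had 10.08, 10.24 and 10.19 over 6 to 8 h, against 8.97, 9.15 and 9.18 over 0 to 4 h (difference 1.07, SE 0.12, adjusted p = 0.0184). KIF20B's second probe set, of a kind whose probes may match other transcripts, lay at 6.82 to 6.98 on these 6 arrays and did not pass (difference -0.03, adjusted p = 0.906).

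KIF18B, KIF18A and KIF2C, which act on microtubule ends, rose as well, while KIF2A, which does so too, did not pass. KIF18B, which limits astral microtubules, had 11.42, 11.89 and 11.63 over 6 to 8 h, against 10.61, 10.66 and 10.64 over 0 to 4 h (difference 1.01, SE 0.13, adjusted p = 0.0184). KIF18A, which acts at the plus ends of kinetochore fibres, had 10.25, 10.23 and 9.72 over 6 to 8 h, against 8.43, 9.29 and 9.08 over 0 to 4 h (difference 1.13, SE 0.24, adjusted p = 0.0365). KIF2C, or MCAK, the depolymerase of centromeres, averaged 11.81 at 6 to 8 h and 10.95 at 0 to 4 h (difference 0.85, SE 0.17, adjusted p = 0.0307). In these 3 genes each value at 6 to 8 h lay above each value at 0 to 4 h.

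The chromokinesins KIF4A and KIF22, which sit on chromosome arms, rose less. KIF4A averaged 10.96 at 6 to 8 h and 10.31 at 0 to 4 h (difference 0.65, SE 0.14, adjusted p = 0.0384). KIF22 averaged 10.12 at 6 to 8 h and 9.51 at 0 to 4 h (difference 0.62, SE 0.14, adjusted p = 0.0415), and its second probe set gave 0.72 (adjusted p = 0.0294). KIF23, KIF11, KIF2A and KIF15 did not pass: their differences were 0.85 (SE 0.24, adjusted p = 0.0692), 0.47 (SE 0.16, adjusted p = 0.113), 0.35 (SE 0.15, adjusted p = 0.182) and 0.18 (SE 0.20, adjusted p = 0.597). KIF23 passed with a filter at a log2 signal of 7 and all arrays kept (0.85, adjusted p = 0.0416), and when the DMSO array at 4 h was left out (1.08, adjusted p = 0.0334). The number of calls moved when 1 array was left out, including those at 9 and 10 h, which enter the shared spread but not the difference, whereas the differences of the 8 called genes stayed at 77% to 124% of their value with all arrays. Without the array at 2, 7 or 8 h no gene of the array passed and so no kinesin did, without that at 0, 9 or 10 h 4, 3 and 4 mitotic genes passed, and without that at 4 or 6 h 8 did.

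After the peak no gene passed in the comparison of 9 to 10 h with 6 to 8 h (limma, 0% of 9130 genes in either direction; 470 genes had an unadjusted p under 0.05, among them KIF11, KIF14, KIF18A, KIF18B, KIF20B and KIF23). The mitotic median was -0.30, that of transport genes -0.12 and that of all genes 0.04. The values of the mitotic genes are given as a description, in 2 groups made after they were seen. In the first the differences were the most negative. KIF23 averaged 10.44 at 9 to 10 h and 11.48 at 6 to 8 h (difference -1.04, SE 0.26, adjusted p = 0.815). KIF14 differed by -1.11 (SE 0.39, adjusted p = 0.912), the most negative among the members, KIF18A by -1.02 (SE 0.27), KIF18B by -0.70 (SE 0.15) and KIF11 by -0.55 (SE 0.18, adjusted p = 0.912).

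In the second group the differences lay nearer 0. KIF20A averaged 11.82 at 9 to 10 h and 12.04 at 6 to 8 h (difference -0.22, SE 0.37, adjusted p = 0.964), KIF2C differed by -0.27, KIF20B by -0.33 and KIF22 by 0.04. KIF4A and KIF2A, the depolymerase of spindle poles that also works in neurons, reached their highest DMSO values at 10 h: KIF4A 11.27 and KIF2A 10.81, against 10.21 and 9.85 at 0 h. The DMSO array at 10 h also had the highest median over the tested genes. Between 9 to 10 h and 6 to 8 h KIF4A and KIF2A differed by 0.10 and 0.24 as deposited. After quantile normalization these differences were 0.01 and 0.15. KIF20A and KIF20B of the second group and KIF23 of the first belong to 1 family, kinesin-6. All of KIF11, KIF14, KIF18A, KIF18B and KIF23 hold CHR letters and CCAAT, as do KIF4A, KIF20B and KIF22 of the second group, whereas KIF2A, KIF2C and KIF20A do not hold both. The groups were cut from the values after these were seen, so a link with the motifs was not tested. KIF15, which can stand in for KIF11 in spindle assembly, was put in neither group. It differed by -0.20 and stayed between 6.96 and 7.63 with DMSO.

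**Figure D3:**
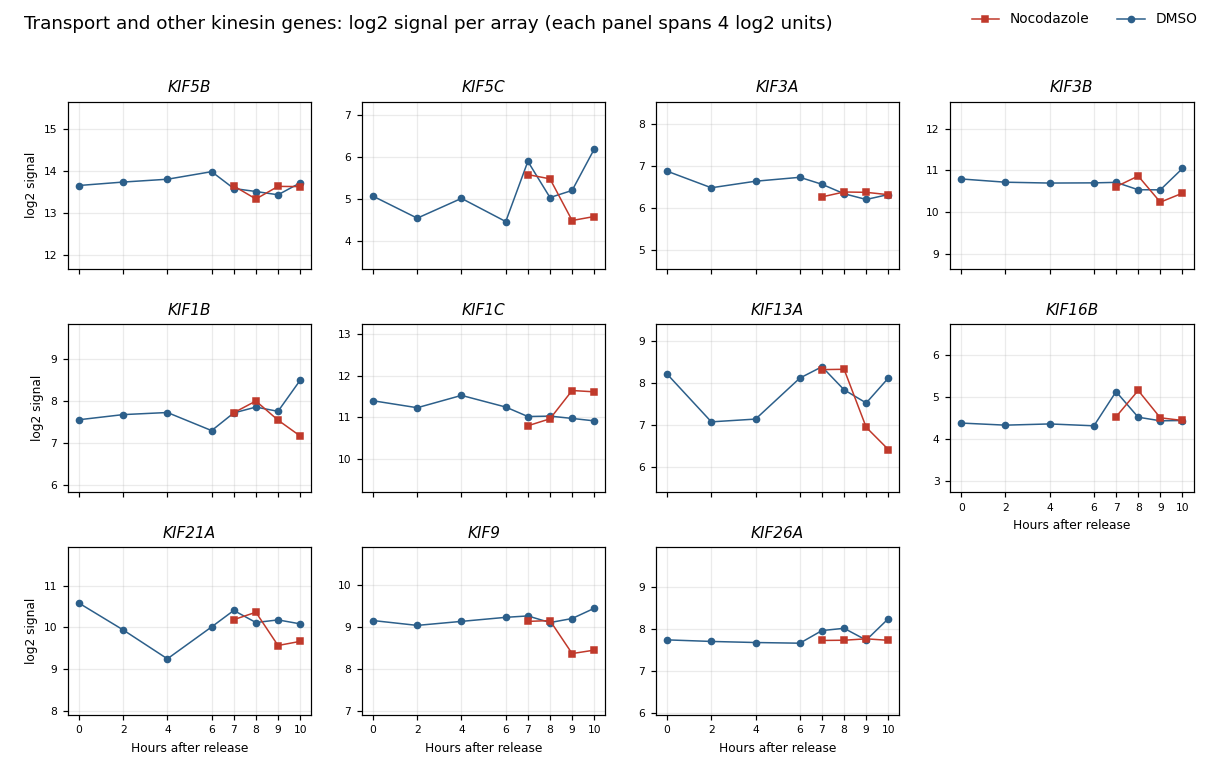
Log2 signal of the 9 transport kinesin genes and of KIF9 and KIF26A against hours after release, 1 point per array, with nocodazole as squares and DMSO as circles; all panels span the same number of log2 units. With DMSO the narrowest ranges are those of KIF9, KIF3B, KIF5B, KIF26A, KIF1C and KIF3A (0.41 to 0.68), each from its brightest probe set. KIF5C, KIF13A and KIF1B lie lower with nocodazole than with DMSO at 9 and 10 h. Of these, KIF13A alone lies below all its DMSO values at both hours.

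Among transport kinesins the highest mean signal belonged to KIF5B, the heavy chain of conventional kinesin found in most tissues. Its DMSO values ran from 13.43 (9 h) to 13.98 (6 h), with a fitted span of 0.32 (adjusted p = 0.366) and a difference of -0.04 (SE 0.14, adjusted p = 0.885) between 6 to 8 h and 0 to 4 h. A further KIF5B probe set with a lower mean ran higher at the later window: it had 9.33, 9.95 and 9.79 over 6 to 8 h, against 8.36, 8.91 and 8.86 over 0 to 4 h. With its probe sets averaged, KIF5B differed by 0.38 (adjusted p = 0.0565). The narrow range of KIF5B is therefore a statement about its brightest probe set.

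KIF3B and KIF3A pair in the heterotrimeric kinesin that enters cilia. KIF3B had 10.54 to 11.05 with DMSO (span 0.33, adjusted p = 0.549) and KIF3A 6.20 to 6.88 (span 0.57, adjusted p = 0.370). The second KIF3B probe set varied more, from 8.59 (4 h) to 9.88 (7 h). KIF21A, which restrains microtubule growth at the cell cortex, was the 1 transport gene called over the course. It had 10.58, 9.94 and 9.25 over 0 to 4 h, 10.01, 10.40 and 10.12 over 6 to 8 h, and 10.18 and 10.08 over 9 to 10 h (span 1.16, adjusted p = 0.0368). Its low point was the 4 h array with the high 18S signal, and the call was lost without that array and without those at 0, 2, 6 or 9 h.

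KIF1C, a fast motor of secretory vesicles, had 11.40 at 0 h, a high of 11.53 at 4 h and 10.92 at 10 h with DMSO; neither its course (span 0.48, adjusted p = 0.104) nor its window difference (-0.29, SE 0.12, adjusted p = 0.186) passed, and that difference was the lowest of all members. KIF13A, a motor of recycling endosomes, had 8.21, 7.07 and 7.13 over 0 to 4 h and 7.52 to 8.38 thereafter (span 0.98, adjusted p = 0.313). KIF1B, which carries mitochondria and synaptic vesicle precursors, lay at 7.29 to 7.85 up to 9 h and at 8.49 at 10 h. KIF5C, best known from neurons, lay near the filter at 4.46 to 6.19, and KIF16B, a motor of early endosomes, reached 5 on the DMSO array at 7 h and the nocodazole array at 8 h alone (5.13 and 5.16, with 4.31 to 4.53 elsewhere).

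Of the 15 motor genes below the filter, 1 is mitotic (KIF2B, 1.72 to 1.82), 6 are transport (KIF1A, KIF3C, KIF5A, KIF13B, KIF17 and KIF21B) and 8 are others (KIF6, KIF7, KIF12, KIF19, KIF24, KIF25, KIF26B and KIF27). Their probe sets and those of the 4 antisense genes ranged from 1.37 (KIF5A) to 4.57 (KIF3C) over the 12 arrays. Motors best known from neurons (KIF1A, KIF5A, KIF17 and KIF21B) and from cilia or hedgehog signalling (KIF7, KIF24 and KIF27) were thus not detected with these probes. KIF9, a motor of motile cilia, was tested through probe sets that may match other transcripts.

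**Figure D4:**
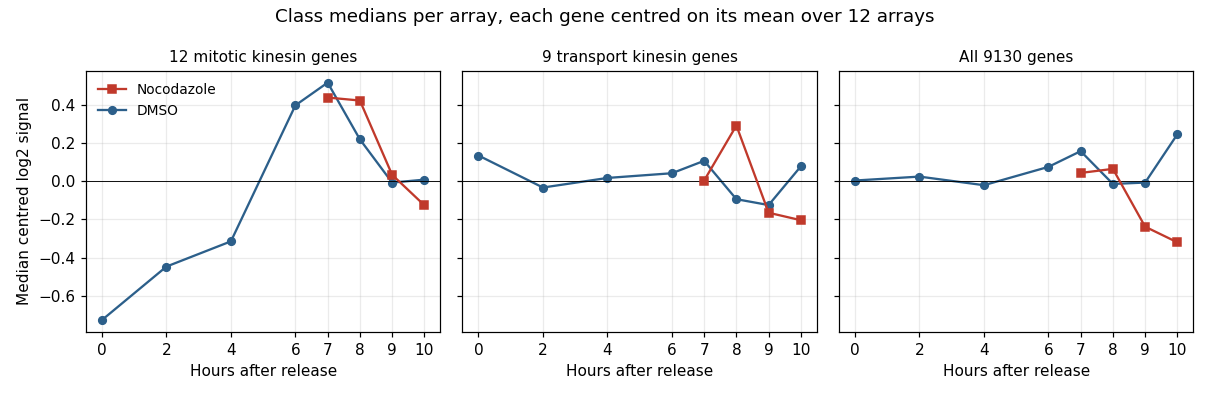
Median over 12 mitotic kinesin genes (left), 9 transport kinesin genes (middle) and all 9130 genes (right) of the log2 signal after each gene was centred on its mean over the 12 arrays, against hours after release; squares are nocodazole and circles DMSO arrays. The mitotic median with DMSO climbs from -0.73 at 0 h to 0.52 at 7 h while the transport median stays between -0.12 and 0.14, and the nocodazole arrays at 9 and 10 h are low over all genes.

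Set against each other on each array, the classes separated by time. The mitotic median minus the transport median, after each gene was centred on its mean over the 12 arrays, was -0.86, -0.41 and -0.33 over 0 to 4 h with DMSO, 0.36, 0.41 and 0.31 over 6 to 8 h, and 0.12 and -0.07 over 9 to 10 h. The mean of 6 to 8 h exceeded that of 0 to 4 h by 0.90 (within-window SD 0.20, n = 3 arrays each), and by 0.56 where a gene's probe sets were averaged. With nocodazole the class difference was 0.44, 0.13, 0.20 and 0.08 over 7 to 10 h, against 0.41, 0.31, 0.12 and -0.07 with DMSO. Nocodazole minus DMSO averaged 0.02 (SD 0.14 over 4 hours), smaller than its spread, and 0.30 with averaged probe sets.

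With nocodazole no gene passed over the 4 hours together (limma with the hour as a block, 0% of 9130 genes in either direction; 953 had an unadjusted p under 0.05, of the members KIF18B alone). The median over all genes was -0.22, and -0.0030 after quantile normalization, so that a kinesin near 0 was above the middle of the array's genes. The mitotic median was -0.01 and the transport median -0.16. Of the 12 mitotic differences 6 were positive, and 10 after quantile normalization, with no mitotic gene passing under either. On the values as deposited KIF18B had the largest positive difference, 0.45 (SE 0.16, adjusted p = 0.386), and was higher with nocodazole at all 4 hours. KIF5C had the largest negative one, -0.55 (SE 0.33, adjusted p = 0.392). KIF20A differed by -0.04 (SE 0.11, adjusted p = 0.811), KIF11 by 0.02 (SE 0.15, adjusted p = 0.951) and KIF23 by 0.40 (SE 0.19, adjusted p = 0.386).

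The pairs of hours were also taken alone. Each of these fits had 1 array per treatment and hour and almost no residual degrees of freedom. Its p therefore rests largely on the variance prior shared over genes. No member called at 9 and 10 h alone passed the interaction test on the values as deposited, given further below. At 7 and 8 h alone no member passed (0.11% of genes higher, 0.164% lower). At 9 and 10 h alone, on the nocodazole arrays with the low medians, KIF18B and KIF23 were higher and KIF2A, KIF1B, KIF5C, KIF13A and KIF9 lower, where 4.53% of all genes were higher and 32.3% lower and the median gene was at -0.44. The 5 of 23 members called lower stand beside 32.3% of all genes, and the 2 called higher beside 4.53%; the part of that shift of the tested genes in these values was not tested.

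KIF23 had 11.49, 11.39, 11.27 and 11.17 with nocodazole over 7 to 10 h, against 11.57, 11.27, 10.67 and 10.22 with DMSO. The courses overlapped at 7 and 8 h and stood 0.60 and 0.95 apart at 9 and 10 h (mean 0.77, adjusted p = 0.0316 for these hours alone). KIF18B had 11.91, 11.90, 11.75 and 11.65 with nocodazole, against 11.89, 11.63, 10.98 and 10.91 with DMSO (mean at 9 and 10 h 0.75, adjusted p = 0.0331). KIF14 had 11.33 and 11.11 with nocodazole at 9 and 10 h, against 10.85 and 10.50 with DMSO, and KIF18A had 9.71 and 9.48 with nocodazole, against 9.15 and 8.95 with DMSO; neither passed at these hours. KIF11 had 9.95 and 9.80 with nocodazole, against 10.02 and 9.90 with DMSO.

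KIF2A was lower with nocodazole at these hours. It had 10.47, 10.40, 9.90 and 9.75 with nocodazole over 7 to 10 h, against 10.47, 10.39, 10.47 and 10.81 with DMSO (mean at 9 and 10 h -0.81, adjusted p = 0.0232). After quantile normalization the values of KIF2A were smaller: its interaction was -0.28 (adjusted p = 0.218), against -0.82 (adjusted p = 0.0660) on the values as deposited, and those of KIF1B and KIF9 were -0.22 and -0.23, against -0.85 and -0.88. KIF4A and KIF22 were also below DMSO at 10 h, with 10.60 for KIF4A with nocodazole against 11.27 with DMSO, and 9.56 for KIF22 with nocodazole against 10.14 with DMSO. KIF2C had 11.57 with nocodazole and 11.56 with DMSO at 10 h, and KIF20A had 11.71 with nocodazole and 11.78 with DMSO. KIF1B had 7.54 and 7.16 with nocodazole at 9 and 10 h, against 7.75 and 8.49 with DMSO. KIF5C had 4.48 and 4.58 with nocodazole at these hours, below the filter level of 5, against 5.20 and 6.19 with DMSO. For all these genes the DMSO array at 10 h was the one with the highest median over the tested genes. The fall of KIF9 was that of its brightest probe set. Its next probe set had 8.08 and 8.11 with nocodazole at 9 and 10 h, against 8.05 and 8.03 with DMSO, and an interaction of 0.055. A further KIF9 probe set above the filter had 7.36 and 7.96 with nocodazole, against 7.97 and 7.97 with DMSO.

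**Figure D5:**
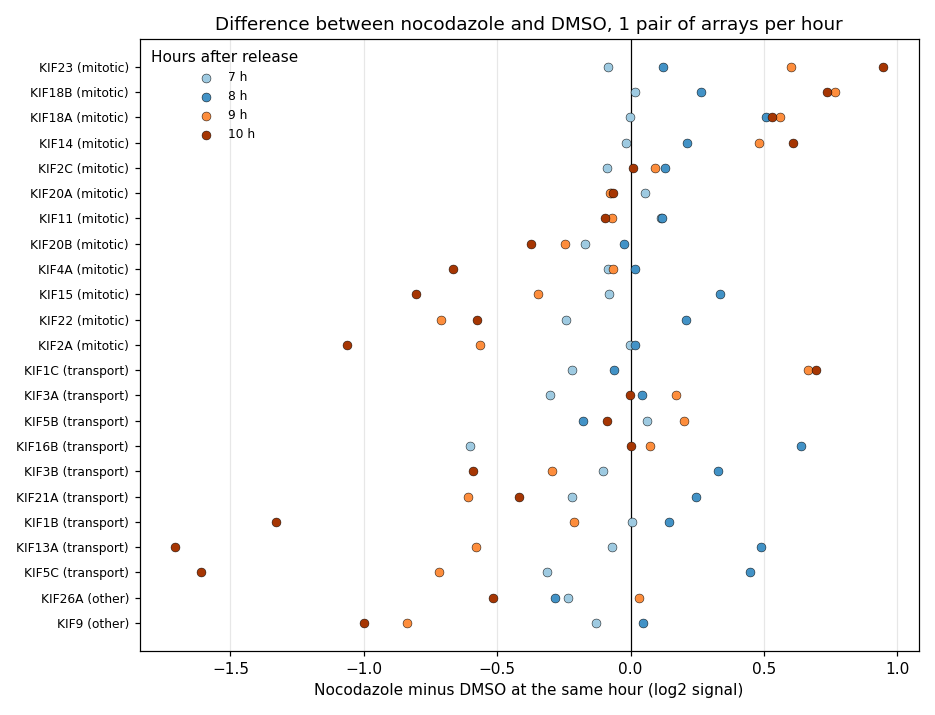
Nocodazole minus DMSO in log2 signal at each of 4 hours for the 23 tested kinesin genes, sorted within class by the mean of 9 and 10 h; each point is the difference of 1 pair of arrays. Points of 9 and 10 h lie to the right for KIF23, KIF18B, KIF18A, KIF14 and KIF1C and to the left for KIF2A, KIF13A, KIF5C, KIF1B and KIF9.

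The change of the difference from 7 and 8 h to 9 and 10 h was tested as an interaction. KIF1C alone among the members passed, where 1.99% of all genes were higher and 10.3% lower (182 and 940 genes; 372 and 347 after quantile normalization; 8075 and 1998 without the filter) and the median gene was at -0.44 (0.0082 after quantile normalization). Its brightest probe set had 10.80, 10.97, 11.64 and 11.61 with nocodazole over 7 to 10 h, against 11.02, 11.03, 10.98 and 10.92 with DMSO, an interaction of 0.82 (SE 0.24, adjusted p = 0.0412). The other KIF1C probe set above the filter gave the opposite: 7.21, 8.21, 6.31 and 6.24 with nocodazole, against 7.97, 7.88, 7.92 and 8.55 with DMSO, an interaction of -1.75 (adjusted p = 0.0247). No single direction can be given for KIF1C.

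The lowest interaction was that of KIF13A, at -1.35 (SE 0.42, adjusted p = 0.0529), with 8.32, 8.32, 6.94 and 6.41 with nocodazole, against 8.38, 7.83, 7.52 and 8.11 with DMSO. KIF5C followed with -1.23 (SE 0.41, adjusted p = 0.0610). KIF23 had 0.75 (SE 0.25, adjusted p = 0.0605), KIF20A -0.06 (SE 0.21, adjusted p = 0.854) and KIF11 -0.20 (SE 0.27, adjusted p = 0.606). After quantile normalization, under which the median of the tested genes lay near 0, 4 mitotic genes passed and all were higher: KIF23 (1.19, adjusted p = 0.0230), KIF18B (0.97, adjusted p = 0.0196), KIF18A (0.89, adjusted p = 0.0342) and KIF14 (0.87, adjusted p = 0.0275). Of the transport genes KIF1C alone passed under that setting, and the values of KIF13A and KIF5C were -0.76 and -1.22 without passing.

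Genes that work with the kinesins or encode motors under other names were read from lists. CENPE, the kinesin of kinetochores, had 5.16 at 0 h, 9.60 at 7 h and 8.22 at 10 h with DMSO, a fitted span of 4.18 (adjusted p = 0.000932) that exceeded that of every KIF gene, and was 2.59 higher at 6 to 8 h than at 0 to 4 h (SE 0.61, adjusted p = 0.0433). KIFC1, the minus-end motor of spindle poles, changed over the course too (span 0.97, adjusted p = 0.0281), KIFC2 did not and KIFC3 was below the filter. Of 6 mitotic partners tested, 4 changed over the course (RACGAP1, PRC1, ECT2 and TPX2), 3 of them were higher at 6 to 8 h (RACGAP1 0.50, PRC1 0.60 and TPX2 0.87, with adjusted p from 0.0300 to 0.0389), and AURKB and NUSAP1 did not pass. Of 8 transport partners tested (the kinesin light chains KLC1, KLC2, KLC3 and KLC4, and KIFAP3, MAPK8IP3, TRAK1 and TRAK2), 0 changed over the course or between these windows. Over all genes 21.8% changed over the course, and 5.41% were higher and 0.635% lower between these windows. With so few genes, 0 of 8 sets the transport partners little apart from those shares. KIFAP3, which joins KIF3A and KIF3B to cargo, had an interaction of -1.71 (SE 0.44, adjusted p = 0.0269), with 7.01 and 6.01 with nocodazole at 9 and 10 h, against 8.11 and 8.37 with DMSO. KIFC2 had one of 1.20 (SE 0.34, adjusted p = 0.0371), and no mitotic partner passed there, where 1.99% of all genes were higher and 10.3% lower.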

How the data were processed

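Total RNA of 12 cultures was hybridised to Affymetrix Human Genome U133 Plus 2.0 arrays, 1 per condition. The authors deposited log2 values per probe set, computed with GC-RMA (named GCRMA in the submitters' processing notes; version not given in the sources used here). Their range was taken as that of base 2 logarithms. All 12 columns were used and 0 belonged to other samples. Of 54675 probe sets, 41097 had 1 gene symbol in the platform annotation, 1801 had several and 11777 had none. All symbols of the members matched RefSeq (GRCh38.p14). Precision is limited by the small number of arrays.

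Tests were run in R 4.3.3 with limma 3.58.1 on the values as deposited, the variance prior following an intensity trend, and p-values were adjusted over all 9130 genes at 0.05. The course was a natural cubic spline with 3 degrees of freedom over 8 DMSO arrays; the windows of the DMSO course shared 1 spread; nocodazole was compared with DMSO with the hour as a block of 4 levels, and the interaction compared 9 and 10 h with 7 and 8 h. The test code was run on simulated data with independent noise of the same SD for every gene and steps at the tested windows. That setting lacks the trends within windows and the shifted nocodazole arrays of these data, so it cannot vouch for the p-values here. Named genes were KIF20A, KIF11, KIF23, up to 6 members called per comparison and direction, the 4 transport genes with the highest mean, and the largest rise and fall; other members named were chosen after their values were seen. Members, classes and lists were chosen with earlier results of these data known. KIF4B has no probe set of its own in the annotation and CIT none with 1 symbol. Alternatives were quantile normalization, no filter or a filter at 7, averaged probe sets, a variance prior without trend, a spline of 2 degrees of freedom, no hour block, 7 and 8 h or 9 and 10 h alone, each array or hour left out, and, chosen after seeing the data, the next probe set of the 11 members that had one. Protein sequences were not used here. Plots used Python 3.11.15, numpy 2.4.6, pandas 2.3.3 and matplotlib 3.10.9.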

Additional observations from a re-analysis of the deposited data

Results flagged for a closer look

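The difference between nocodazole and DMSO in KIF1C was larger at 9 and 10 h than at 7 and 8 h by 0.82 on the log2 scale (limma interaction, adjusted p = 0.0412), and KIF1C was the 1 member for which the test of a change between hours passed. The gene's other probe set above the filter gave -1.75 (adjusted p = 0.0247), and the mean of both gave -0.47 (adjusted p = 0.284).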

How the results depend on the processing

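Between 6 to 8 h and 0 to 4 h all 12 mitotic differences were positive under every alternative, except 1 after quantile normalization (KIF15) and 1 on the next probe set (KIF20B, -0.034), but fewer genes were called under some: 8 as reported, 2 without a filter and 0 to 8 with 1 array left out. Genes called on the whole array in this comparison numbered 552, but 884 after quantile normalization, 65 without a filter, 1266 without the 6 h array, 134, 212 and 226 without that at 0, 9 or 10 h, and 0 without that at 2, 7 or 8 h. Over the course 11 mitotic genes were called (3 to 10 with 1 array left out), and KIF14, KIF20A and KIF23 were called under every alternative. The 1 transport gene became 3 after quantile normalization, 0 without a filter, without an intensity trend or with 2 degrees of freedom, and 0 to 2 with 1 array left out. All genes called over the course numbered 1993, but 3665 after quantile normalization and 862, 1083, 1323 and 1239 without the array at 0, 2, 8 or 9 h. For nocodazole, 9 and 10 h alone gave 2 mitotic genes higher, 1 lower and 3 transport genes lower, where all 4 hours gave 0, and 3364 genes in all; the other alternatives gave 0 to 36 genes in all, except 401 without 8 h. In the interaction, mitotic genes higher numbered 0, but 4 after quantile normalization, 3 without a filter, 1 with a filter at 7, 1 with averaged probe sets and 0 to 3 with an hour left out; mitotic genes lower numbered 0, but 1 without a filter, 1 with a filter at 7, 1 with averaged probe sets and 0 to 2 with an hour left out. Transport genes higher numbered 1, but 3 without a filter, 0 with averaged probe sets, without an intensity trend or on the next probe set, and 0 to 1 with an hour left out; transport genes lower numbered 0, but 2 without a filter, 1 with a filter at 7, 2 with averaged probe sets, 1 on the next probe set and 0 to 4 with an hour left out. All genes called there numbered 1122, but 719 after quantile normalization, 10073 without a filter (80.2% of them higher, against 16.2% as reported), 1742 with a filter at 7, 1714 with averaged probe sets, and 456, 4047 and 297 without 8, 9 or 10 h. The number of genes tested differs without a filter (19775) and with a filter at 7 (7712); the cause of the other shifts was not tested. With averaged probe sets the class difference was 0.56 for 6 to 8 h minus 0 to 4 h and 0.30 for nocodazole minus DMSO.

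Directions that turned were of values that had not passed, except KIF20B above and KIF1C in the interaction. Between 6 to 8 h and 0 to 4 h they were KIF1C (0.049 averaged, 0.38 on the next probe set), KIF3B (0.24 averaged, 0.57 on the next), KIF5B (0.38 averaged, 0.19 on the next, -0.18 to 0.052 with 1 array left out) and KIF21A (-0.083 to 0.58 with 1 array left out). Between 9 to 10 h and 6 to 8 h they were KIF1C (0.16 averaged, 0.47 on the next probe set) and, with 1 array left out, KIF21A (-0.13 to 0.068), KIF3B (-0.12 to 0.39) and KIF5B (-0.26 to 0.028). For nocodazole minus DMSO, quantile normalization gave 0.12 for KIF20A, 0.027 for KIF21A, 0.083 for KIF3B and 0.050 for KIF5B; 7 and 8 h alone gave -0.14 for KIF1C, 0.013 for KIF21A, 0.11 for KIF3B and 0.065 for KIF5C; 9 and 10 h alone gave -0.082 for KIF11 and 0.056 for KIF5B. KIF1C had -0.41 averaged and -1.09 on the next probe set, and with an hour left out KIF11 ran from -0.017 to 0.053 and KIF5B from -0.069 to 0.057. In the interaction, quantile normalization gave 0.36 for KIF11, 0.23 for KIF20A and 0.032 for KIF21A; KIF1C had -0.47 averaged and -1.75 on the next probe set; KIF5B had -0.25 averaged, -0.10 on the next probe set and -0.029 to 0.26 with an hour left out; and KIF20A ran from -0.13 to 0.0026 with an hour left out. Of all values of named genes under alternatives, 589 kept their direction and side of the threshold, 93 no longer passed, 17 newly passed and 43 turned. The labels give no replicate numbers, and nocodazole and DMSO arrays were paired by hour; without that block 8 genes in all and 0 kinesins were called, against 0 genes with it. With 1 array per condition, the spread between cultures of a condition was not measured.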
